A study of Mus musculus with 6 samples.

Results

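The cells described here are the 2439 of 46495 testis cells (5.25%) that the deposited cell table places in the class Lep/Zygo/ePac SC, whose name stands for spermatocytes from leptotene through zygotene to early pachytene. They were chosen by that class label alone, and their UMI (the molecular tags that mark single transcripts) were summed within each library. The 309, 284 and 362 cells of libraries TD, TE and TF came from NONO deltaER mice, and the 471, 580 and 433 cells of libraries TA, TB and TC came from NONO mice. Both groups are testes of adult C57BL6 mice, digested with enzymes and profiled with the 10x Genomics 3′ v2 chemistry, and the comparison asks how the deltaER genotype changes testicular cells. NONO is a nuclear protein that binds RNA and DNA. The sources used here do not say what deltaER alters, and no further allele or treatment is named for either genotype. The deposited table names its groups WT and KI, read here as NONO and NONO deltaER. If that reading were wrong, every direction between genotypes would turn. The table ties no library to a numbered sample. Whether the 3 libraries of each genotype are different mice is not said, and a p-value here covers library-to-library spread, which may be technical.

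In meiotic prophase a spermatocyte breaks its own DNA, repairs the breaks on the homologous chromosome and joins the homologs along their length with the synaptonemal complex. Break formation and strand exchange belong to leptotene and zygotene, and full synapsis marks pachytene. In male pachytene the X and Y chromosomes, which pair along a short stretch only, are gathered in the sex body and silenced, and a large class of piRNAs begins to be made from autosomal clusters with A-MYB, the product of Mybl1, as a transcriptional activator in mice.

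The class was deeply sampled, with 4246357 to 7899673 UMI per library. The median cell had 13122 UMI, the fifth highest of the 17 classes, and 4457 genes, the second highest. The libraries fell into sets that cross the genotypes. In the class, the median mitochondrial share was 0.999% in TF, 1.02% in TA and 0.991% in TB, and 0.201% in TD, 0.230% in TE and 0.209% in TC. Median UMI per cell ran from 10358.5 to 12420 in TF, TA and TB and from 16185 to 22265 in TD, TE and TC. Among genes of at least 50 CPM (UMI of a gene per 1000000 UMI of the class in a library), the median absolute log2 difference between these sets was 0.10, and that between genotypes was 0.05. Of all cells, 723 barcodes occurred in more than 1 library, 72 cells of the class had such a barcode, and 2 barcodes were shared between libraries within the class.

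Of the genes that stand out most in these cells, promoters are shown for 3 that contain the letters AACTGNC, a core that MYB proteins recognise, because A-MYB is the activator named above. The stretches run from 250 bases before to 50 after the RefSeq start, 5′ to 3′ on the gene's strand in GRCm38.p6, and the capitals mark each match on either strand. Piwil1 (chr5:128735996-128736295, + strand) encodes the PIWI protein that carries pachytene piRNAs, Cyp19a1 (chr9:54268115-54268414, - strand) encodes aromatase, and Gm10619 (chr7:73816454-73816753, - strand) is annotated as a lincRNA.
Piwil1: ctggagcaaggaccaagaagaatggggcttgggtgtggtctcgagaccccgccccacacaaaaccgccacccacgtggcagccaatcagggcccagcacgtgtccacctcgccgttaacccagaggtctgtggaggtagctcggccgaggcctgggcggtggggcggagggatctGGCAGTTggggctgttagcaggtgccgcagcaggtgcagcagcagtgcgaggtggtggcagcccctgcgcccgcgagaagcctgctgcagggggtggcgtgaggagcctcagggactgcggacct
Cyp19a1: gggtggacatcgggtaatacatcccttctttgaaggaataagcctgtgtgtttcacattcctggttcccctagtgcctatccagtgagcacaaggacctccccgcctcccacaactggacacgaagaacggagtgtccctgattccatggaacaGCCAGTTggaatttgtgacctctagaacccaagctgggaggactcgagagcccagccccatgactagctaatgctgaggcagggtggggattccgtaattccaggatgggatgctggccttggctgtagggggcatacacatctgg
Gm10619: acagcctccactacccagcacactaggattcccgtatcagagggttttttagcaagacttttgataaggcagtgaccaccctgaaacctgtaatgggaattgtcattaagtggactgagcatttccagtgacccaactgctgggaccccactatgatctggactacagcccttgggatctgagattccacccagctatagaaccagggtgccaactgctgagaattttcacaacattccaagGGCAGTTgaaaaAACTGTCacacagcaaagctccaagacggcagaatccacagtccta
The match lies 75 bases before the start in Piwil1 and 96 bases before it in Cyp19a1. RefSeq promoters were found by symbol for 101 of the 144 leading genes defined further on, and 24 of the 101 (23.8%) held AACTGNC on either strand. The share was 14.5% of the other 3250 genes with at least 50 CPM in the class, and 14.5% of all 27025 genes with a promoter in the table. The fixed form AACTGCC, each match of which is also a match of AACTGNC, was present in 11.9% of the leading genes, 5.51% of the other genes at that level and 4.76% of all genes. The cAMP response element TGACGTCA, taken for comparison, was present in 1.98%, 4.25% and 2.03%. These are counts of letters in a window, with no test, and they say nothing of binding.

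The levels of stage genes fitted the name of the class in part. Values are mean CPM ± SD over the 6 libraries, and comparisons between classes are descriptions without a test, since the classes were made from the same cells. Of the 4 genes given as markers, Piwil1 stood at 1797 ± 57.5 CPM in the class, against 616 ± 25.8 in the class IPac/eDip SC that follows it and 45.4 ± 19.7 in the class Preleptotene SC that precedes it. Id4, a transcriptional regulator better known from spermatogonial stem cells, stood at 49.3 ± 5.49 CPM, against 22.9 ± 1.47 in IPac/eDip SC and 3.17 ± 2.94 in Preleptotene SC. Ldhc, the testis lactate dehydrogenase, stood at 1246 ± 156 CPM and at 82.5 ± 23.3 in Preleptotene SC, but 3 classes were higher. Sycp3 is not analysed here. The 6 markers of meiotic entry and leptotene were split. Stra8, which commits germ cells to meiosis, averaged 0.355 CPM against 960 in the class Differentiated SG. Prdm9, which marks break sites, averaged 2.29 CPM against 532, and Dmc1, the meiotic recombinase, averaged 8.23 CPM against 705. The cohesin subunit Rec8 averaged 0.933 CPM against 37.3. The other members were well detected: Meioc, which keeps germ cells in meiotic prophase, stood at 785 ± 23.6 CPM against 1116 ± 84.2 in Differentiated SG, and Spo11, the protein that cuts the DNA, at 274 ± 11.4 CPM against 113 ± 19.2.

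Synapsis genes were present at intermediate levels. Sycp1, the transverse filament of the synaptonemal complex, stood at 789 ± 42.0 CPM, against 2827 ± 246 in Preleptotene SC and 123 ± 5.71 in IPac/eDip SC. Hormad1, which coats unsynapsed axes, stood at 639 ± 45.3 CPM, against 1499 ± 166 and 212 ± 6.71 in the same classes. Late division genes differed among themselves. The 18 on the list summed to 2633 CPM, against 3980 in IPac/eDip SC, 5496 in Round ST(Step 1-2) and 1869 in Preleptotene SC, and 10 were above Preleptotene SC. Ccna1, the cyclin of meiotic division, had 31.1 ± 4.61 CPM, against 339 ± 18.4 in IPac/eDip SC and 572 in Round ST(Step 1-2). Nek2 and Aurka, kinases of the centrosome and spindle, had 383 ± 14.8 and 221 ± 9.18 CPM, against 540 and 617 CPM in IPac/eDip SC. The near absence of Stra8, Prdm9, Dmc1 and Rec8 goes against the leptotene part of the name. The levels of Meioc and Spo11 do not settle it, since Spo11 was higher here than in Differentiated SG. The 6 markers of meiotic entry and leptotene summed to 1071 CPM here, and still to 730 CPM in IPac/eDip SC and 573 CPM in Round ST(Step 1-2). Of the 7 measured markers of zygotene and synapsis, 6 were highest in Preleptotene SC, and they summed to 4320 CPM here against 10275 CPM there. Of the 10 pachytene markers, 5 were highest in this class. They summed to 12058 CPM, against 1856 in Preleptotene SC and 8735 in IPac/eDip SC. The class is called here by its deposited name, as are the other classes. Differentiated SG held the highest level of 4 of the 6 markers of meiotic entry and leptotene. Preleptotene SC held that of 6 of the 7 zygotene markers, as given above. These names are therefore labels of classes and are not read here as literal stages.

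**Figure D1:**
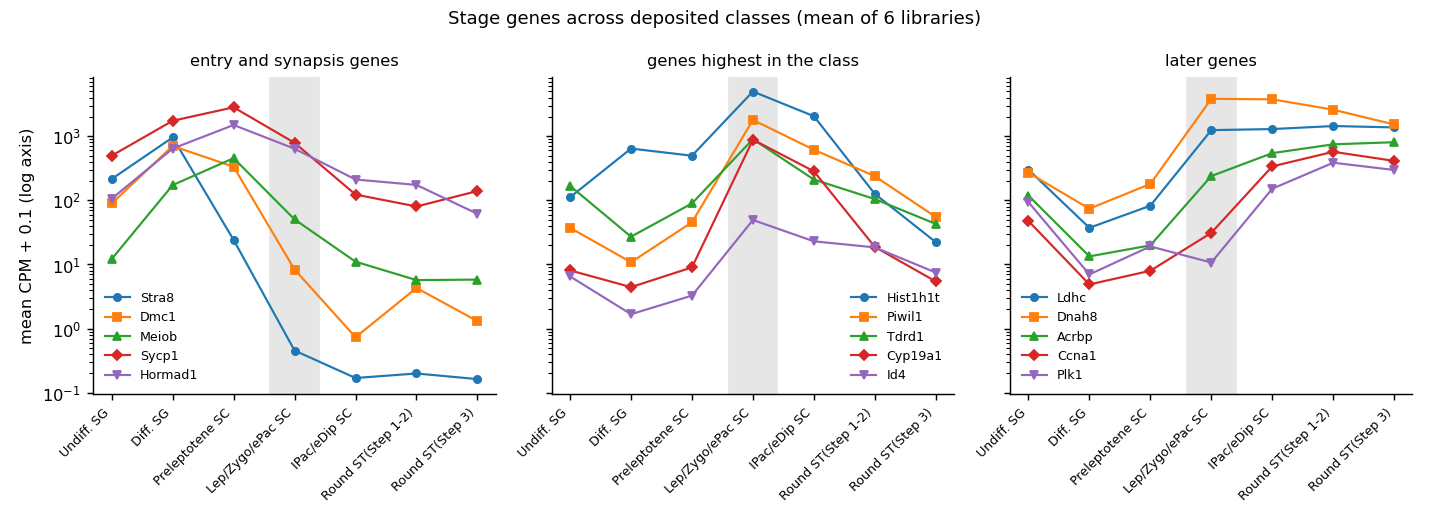
Mean CPM + 0.1 over 6 libraries (log axis) of stage genes in 7 deposited germ cell classes in developmental order, with Lep/Zygo/ePac SC shaded. Stra8 and Dmc1 lie below 10 CPM in the shaded class, Hist1h1t, Piwil1, Tdrd1, Cyp19a1 and Id4 peak there, and Ccna1 and Plk1 are higher after it.

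Somatic markers were close to 0. The 7 Sertoli markers together summed to 2.98 to 5.65 CPM in NONO deltaER libraries and 2.45 to 6.20 CPM in NONO libraries. The 6 macrophage markers summed to 3.94 to 6.36 CPM in NONO deltaER libraries and 1.65 to 14.0 CPM in NONO libraries, and 8 markers of undifferentiated spermatogonia to 12.5 to 13.7 CPM and 10.1 to 14.4 CPM. The 8 measured spermatid markers did not share this floor. They summed to 466 to 772 CPM in NONO deltaER libraries and 699 to 802 CPM in NONO libraries, most of it Prm2, a protamine, at 538 ± 125 CPM. That sum averaged 683 CPM in the class, 3349 CPM in Preleptotene SC and 579 CPM in IPac/eDip SC.

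Of 4203 genes with at least 50 CPM in the class, 657 (15.6%) were higher there than in any of the other 16 classes, and 144 of them by at least 1.5-fold, which are called leading genes. For 99 of the 144 the next class was IPac/eDip SC. By annotation, 70.1% of the leading genes were protein coding, against 96.1% of all genes at that level, and 37 were annotated as long noncoding RNA. The 2 largest ratios were those of the lincRNAs Gm21221 (138 ± 9.42 CPM, 8.97-fold over the next class) and Gm36617 (203 ± 22.6 CPM, 8.16-fold). Both were detected evenly, Gm21221 at 134, 133 and 125 CPM in TD, TE and TF and 143, 144 and 151 CPM in TA, TB and TC. Among protein-coding genes, Kcnk10, a background potassium channel, led with 404 ± 25.9 CPM and 5.35-fold, and it had 382, 375 and 391.9 CPM in TD, TE and TF and 407, 430 and 439 CPM in TA, TB and TC. The NONO deltaER values of Gm21221 and Kcnk10 lie below their NONO values, and neither gene passed the test of the genotype given below.

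The next protein-coding genes were Gnao1, a G protein alpha subunit (151 ± 4.76 CPM, 4.63-fold), Tdrd1, a Tudor-domain scaffold of the piRNA machinery (902 ± 33.3 CPM, 4.27-fold), Adad2, a germ cell adenosine-deaminase-like RNA-binding protein (76.8 ± 2.42 CPM, 4.12-fold), Gstt2, a glutathione transferase (169 ± 14.2 CPM, 3.68-fold) and Stox1, a winged-helix DNA-binding protein (638 ± 78.8 CPM, 3.56-fold). Gm20742, AC163638.2, 2700054A10Rik, Gm10619, Gm34060, 4930579G24Rik, Elfn2, Gm48544, Stambp, Gm12648, Gm13817 and Gm9732 complete the first 20, between 3.15-fold and 6.40-fold. Past the first 20, and chosen after the values were seen, Cyp19a1 stood at 884 ± 30.03 CPM, 3.11-fold over IPac/eDip SC and 99.1-fold over Preleptotene SC, and Cbx7, a Polycomb subunit, at 243 ± 25.9 CPM, 2.91-fold over the next class. Aromatase makes oestrogen from androgen and is known in the testis from Leydig cells and germ cells. Cyp19a1 stood at 24.2 CPM in the class Leydig.

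The 10 highest genes together took 5.20% of the UMI. They were Zc3h7a (11671 ± 3195 CPM), Peak1 (8583 ± 1891), Hist1h1t (4987 ± 167), Ybx2 (4784 ± 624), Hsp90aa1 (4370 ± 97.7), Dnah8 (3836 ± 86.5), Ybx1 (3539 ± 476), Rsph1 (3431 ± 359), Ubb (3393 ± 179) and Pabpc1 (3366 ± 432). These are UMI levels of 3′ tags, with 1 tag per transcript, and are not scaled to length. Zc3h7a and Peak1 were highest in the class Elongated ST, and the class ranked only 12th of 17 for each. In the clusters of the class described below, Zc3h7a was at 34124 CPM where the median cell had 5767.5 UMI. It was at 6661 CPM where the median cell had 28129 UMI. The level of Zc3h7a thus differed with depth, and whether this RNA was made in these cells was not tested. Hist1h1t, the testis linker histone H1t, Ybx2, a Y-box protein that binds germ cell mRNA, Hsp90aa1, a chaperone, and Dnah8, a dynein heavy chain of the sperm tail, were each highest in the class itself.

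The piRNA machinery as a whole had a higher summed level here than in the neighbouring classes. Of the 22 genes on the list, all measured, 21 had at least 10 CPM, 9 were highest in this class and 17 were above Preleptotene SC. Their summed level was 10731 CPM, against 5247 in Preleptotene SC and 7441 in IPac/eDip SC. Besides Piwil1 and Tdrd1, Tdrd5, a scaffold that pachytene piRNA production needs, stood at 550 ± 22.5 CPM against 230 ± 10.9 in IPac/eDip SC, and Pld6, the mitochondrial nuclease of piRNA processing, at 200 ± 24.5 CPM against 114 ± 16.1. Others were lower than in Preleptotene SC. Mov10l1, the helicase that feeds piRNA precursors, was at 333 ± 27.7 CPM against 964 ± 89.8. Piwil4, the PIWI protein of fetal germ cells, was at 0.0633 CPM here and 11.9 CPM in Undifferentiated SG, where it was highest. Mybl1 itself was nearly flat, at 191 ± 20.04 CPM against 154 ± 25.3 in Preleptotene SC and 152 ± 30.4 in IPac/eDip SC.

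Recombination genes had mostly passed their peak. Of 23 measured genes of break formation and strand exchange, 15 were highest in Differentiated SG and 2 in this class, and their summed level was 1684 CPM, against 8272 in Differentiated SG and 4073 in Preleptotene SC. Spo11 was one of the 2, at 274 ± 11.4 CPM against 173 ± 45.8 in Preleptotene SC. Tex15, a germ cell protein needed for meiotic recombination, had 9.58 ± 1.45 CPM against 558 ± 89.9. Among crossover genes, Mlh3, a protein of crossover sites, and Cntd1, a cyclin-like crossover factor, were highest in the class, at 176 ± 8.92 and 209 ± 8.18 CPM, against 65.6 ± 18.3 and 140 ± 12.2 CPM in Preleptotene SC. Of 15 measured genes of the synaptonemal complex and meiotic cohesin, 3 were above Preleptotene SC and 12 below. Syce1, a central element protein, was among the 3, at 783 ± 91.6 CPM against 172 ± 17.7. The cohesin subunit Rad21l was at 0.952 CPM against 64.1 ± 30.04.

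Genes used later in sperm were already abundant. The 30 flagellum genes summed to 18439 CPM, against 3565 in Preleptotene SC and 24388 in IPac/eDip SC, and 23 of the 30 were above Preleptotene SC. Ropn1l, a radial spoke protein of the tail, had 2740 ± 230 CPM against 221 ± 46.4 in Preleptotene SC. The acrosome list was split. Zpbp and Acrbp, proteins of the acrosome matrix, had 394 ± 21.7 and 239 ± 45.6 CPM, against 124 ± 13.3 and 19.8 ± 12.4 CPM in Preleptotene SC, while 9 of its 18 genes were under 10 CPM in the class. The list of sperm glycolysis was split too: of 18 measured genes, 10 were above Preleptotene SC and 8 below, and 0 were highest in this class. Their sum was 5718 CPM, against 1033 in Preleptotene SC and 7022 in IPac/eDip SC. In sperm energy metabolism, Slc2a3, a glucose transporter, had 1865 ± 123 CPM against 64.8 ± 19.7 in Preleptotene SC and Ldha, a lactate dehydrogenase, 1050 ± 106 against 41.3 ± 4.35.

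The X chromosome gave very little RNA. X-linked genes gave 0.0516 ± 0.00500% of the UMI in the class, against 1.58 ± 0.142% in Preleptotene SC and 0.0344 ± 0.00699% in IPac/eDip SC, which is 30.6-fold less than in the class before. Without the 202 cells that carry spermatid RNA, described below, the share of the class was 0.0346, 0.0386 and 0.0356% in TD, TE and TF and 0.0384, 0.0441 and 0.0348% in TA, TB and TC. No autosome differed by as much. With Zc3h7a and Peak1 left out, the ratio of the class to Preleptotene SC ran from 0.830 to 1.16 over the 19 autosomes, and the X share was 33.3-fold lower. Of 84 X-linked genes with at least 50 CPM in Preleptotene SC, 83 were at least 4-fold lower in the class. Only 1 X-linked gene kept 50 CPM, Akap4, a protein of the sperm tail, at 88.5 ± 17.1 CPM against 469 ± 212 in Preleptotene SC. It ranked 15th of 17 classes and is a gene of spermatids, whose RNA is described below. Scml2, an X-linked Polycomb protein of germ cells, was at 9.28 ± 1.39 CPM against 688 ± 106, and Huwe1, a ubiquitin ligase, was at 3.77 ± 1.02 CPM against 514. Huwe1 was chosen after its values were seen.

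Nono lies on X (101429318 to 101448591, + strand, mm10) and was among the genes nearly absent here. The class held 9 Nono UMI in all. The level was 0.394, 0 and 0.235 CPM in TD, TE and TF, and 0, 0.281 and 0.380 CPM in TA, TB and TC, so the genotypes overlapped and 2 libraries had no UMI. It was 31.0 ± 9.10 CPM in Preleptotene SC and 114 CPM in Undifferentiated SG. A 3′ tag that lies outside the altered part does not check the genotype, and at 9 UMI a difference was not detectable at this depth. The autosomal members of the same protein family were well expressed, Sfpq at 297 ± 13.8 CPM and Pspc1 at 385 ± 10.98 CPM, against 479 ± 55.2 and 366 ± 29.8 CPM in Preleptotene SC. Autosomal retrogenes of X-linked parents stood high as well: Pdha2, the testis form of a pyruvate dehydrogenase subunit, had 525 ± 18.6 CPM against 143 ± 28.3 in Preleptotene SC, and its X-linked parent Pdha1 had no UMI in the class. Pgk2, the retrogene of phosphoglycerate kinase, was an exception at 63.9 ± 11.5 CPM, the lowest of the 17 classes. Along the order of cells described below, it was at 13.5 ± 7.19 CPM in the first part of the class and 94.1 ± 16.1 CPM in the last.

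**Figure D2:**
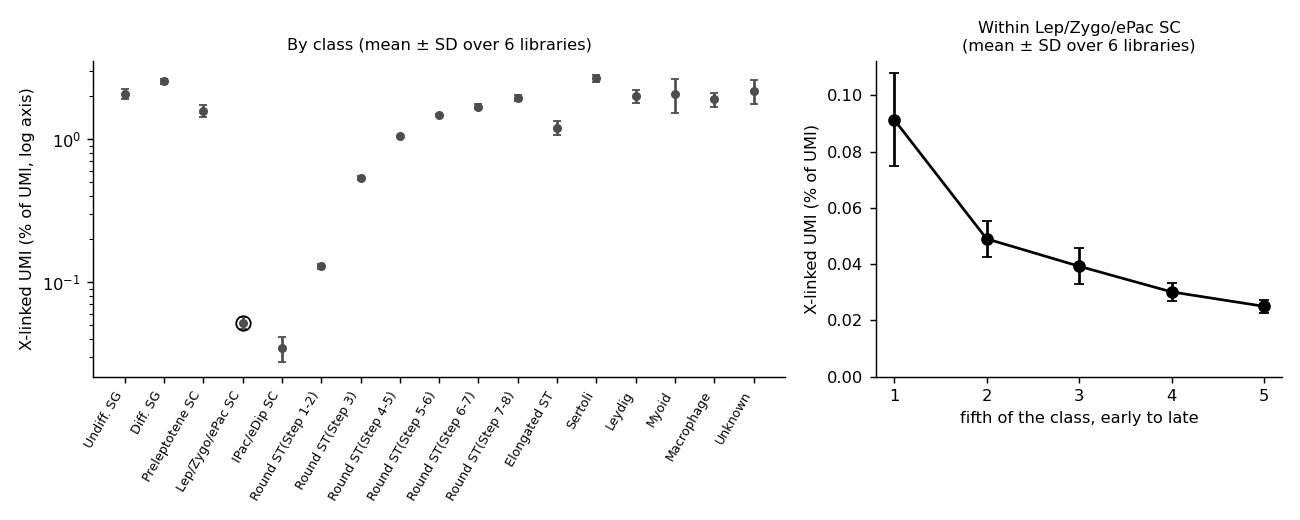
Share of UMI from X-linked genes, as mean ± SD over 6 libraries, in the 17 deposited classes (left, log axis, with Lep/Zygo/ePac SC ringed) and in 5 equal parts of its cells ordered from early to late (right, linear axis). The share is 0.0516% in the class and 1.58% in Preleptotene SC, and within the class it goes from 0.0914% in the first part to 0.0250% in the last.

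Within the class the cells could be laid out in an order. Each cell was scored by the log2 ratio of UMI from 733 genes at least 8-fold higher in IPac/eDip SC than in Preleptotene SC to UMI from 768 genes with the opposite difference, X-linked genes, Zc3h7a and Peak1 apart, and 2237 cells without spermatid RNA were cut into 5 equal parts. The genes used for the order follow it by construction. The X-linked share, which was not used, was 0.0914 ± 0.0166% in the first part and 0.0490 ± 0.00646%, 0.0393 ± 0.00631%, 0.0301 ± 0.00318% and 0.0250 ± 0.00226% in the following parts. Median UMI per cell moved with it, from 5581.5 in the first part to 25218 in the last, and the part of depth in this trend was not tested. Hormad1, also not used, went from 1908 ± 123 CPM in the first part to 283 ± 17.7 CPM in the last. Both Hormad1 and the X-linked share are lower in IPac/eDip SC than in Preleptotene SC, as given above. Neither is therefore an independent check of the order. Hist1h1t and Tdrd1, not used either, peaked inside the class. Both are leading genes, higher in the class than in either neighbour between which the order runs. Their peak is therefore no independent check either. Hist1h1t had 3399 ± 499, 5333 ± 415, 5929 ± 238, 5382 ± 244 and 4485 ± 297 CPM over the 5 parts, and Tdrd1 had 871 ± 60.1, 1307 ± 89.5, 1192 ± 76.4, 863 ± 70.7 and 607 ± 36.1 CPM. Piwil1, although 1 of the late genes, also peaked in the second part, at 2324 ± 48.0 CPM, and had 1419 ± 53.1 CPM in the last.

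**Figure D3:**
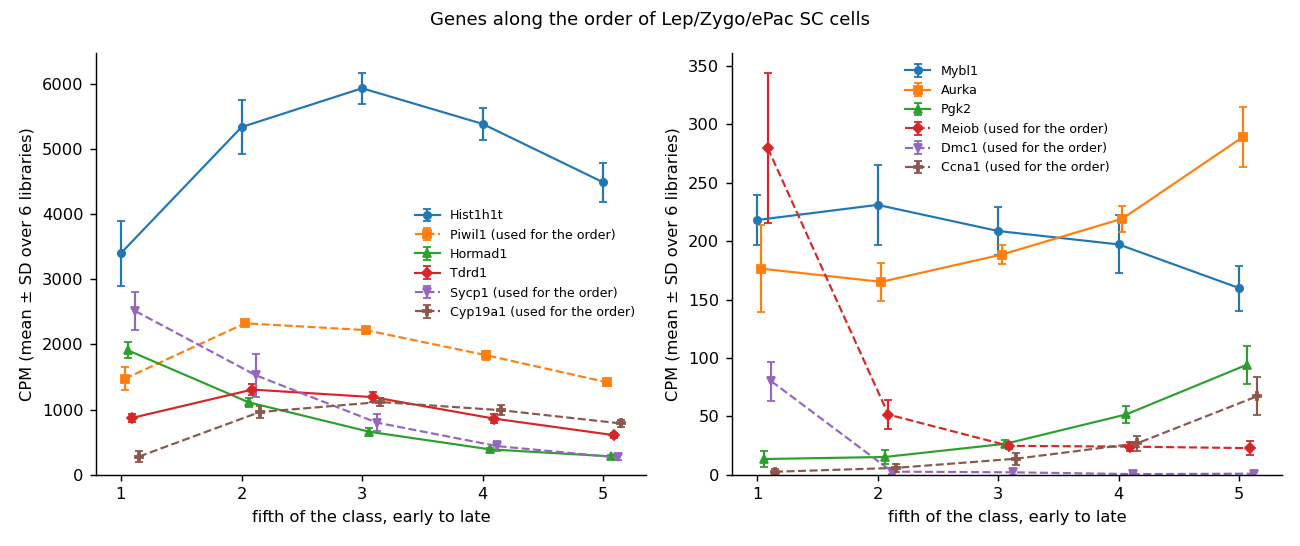
CPM by part of the class, ordered from early to late, as mean ± SD over 6 libraries, for abundant genes (left) and genes of lower level (right). Dashed lines are genes used to make the order. Hist1h1t, Piwil1 and Tdrd1 peak inside the class, and Hormad1, Sycp1, Meiob and Dmc1 are highest in the first.

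Dmc1 was found mainly in 1 small cluster, while synapsis genes were spread more widely. Clustering of the class alone gave 7 clusters, and 1 of them, with 214 cells (8.77%), had 136 CPM of Dmc1, 411 CPM of Meiob and 2806 CPM of Sycp1. Its first genes by fold were Prss50, Rad51ap2 and Dmc1, and its X-linked share was 0.1201%. Dmc1 was between 0.550 and 10.2 CPM in the other 6 clusters. It took 31, 33 and 28 cells of TD, TE and TF and 45, 50 and 27 cells of TA, TB and TC, so every library held it. A cluster of 674 cells (27.6%), with 1677 CPM of Sycp1, 1195 CPM of Hormad1 and 74.0 CPM of Meiob, was shared as well, with 57.0% of its cells from TA, TB and TF. By contrast, 2 clusters drew 88.7% and 90.8% of their cells from TA, TB and TF, and 2 others drew 97.3% and 95.5% from TC, TD and TE. Those 4 clusters follow the library sets named at the start, and their sizes are not compared between genotypes.

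The last cluster, with 231 cells, was led by genes of spermatids. Across the class, 202 cells (8.28%) had at least 0.1% of their UMI in the 8 spermatid markers, a limit set after the data were seen. They held 87.7% of the spermatid marker UMI of the class and 31.7% of its X-linked UMI, and 129 cells lay between 0.05% and 0.2%. Of these 202 cells, 26.2% were among the 5% of cells with the highest doublet score in their library, against 0.805% of the other cells of the class. Scrublet called only 208 doublets in the whole series (0.447%). Why it marked so few cells was not tested, its calls were not used, and no doublets were removed. The cells with spermatid RNA made up 6.80, 8.45 and 7.46% of the class in TD, TE and TF and 11.04, 6.90 and 8.78% in TA, TB and TC, and the genotypes overlapped (exact permutation p = 0.4, two-sided).

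The class made up a smaller share of every NONO deltaER library than of any NONO library, a difference that did not pass the threshold. It made up 4.40, 4.54 and 4.39% of the cells in TD, TE and TF, and 5.29, 6.82 and 5.72% in TA, TB and TC. TA, the lowest of NONO, lay above TE, the highest of NONO deltaER. The means were 4.44 ± 0.0797% in NONO deltaER and 5.94 ± 0.791% in NONO (SD, n = 3 each), a difference of -1.50 percentage points (exact permutation p = 0.1, two-sided, the smallest that 3 against 3 allows, adjusted p = 0.283 over the 17 classes). The difference was -1.66 points among TF, TA and TB and -1.25 points among TD, TE and TC. As a share of germ cells, the class took 4.85 ± 0.0332% in NONO deltaER and 6.48 ± 0.794% in NONO. As a share of the 5 classes from Differentiated SG to Round ST(Step 1-2), a denominator chosen after the data were seen, it took 25.6 ± 0.994% in NONO deltaER and 35.1 ± 3.12% in NONO. In an edgeR quasi-likelihood model of cell counts over the 17 classes, the log2 ratio was -0.42, with a Benjamini-Hochberg adjusted p of 0.107. The difference therefore had 1 direction in every library and under each of these denominators, and it did not pass the threshold after adjustment. Without the cells that carry spermatid RNA it was -1.33 points.

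**Figure D4:**
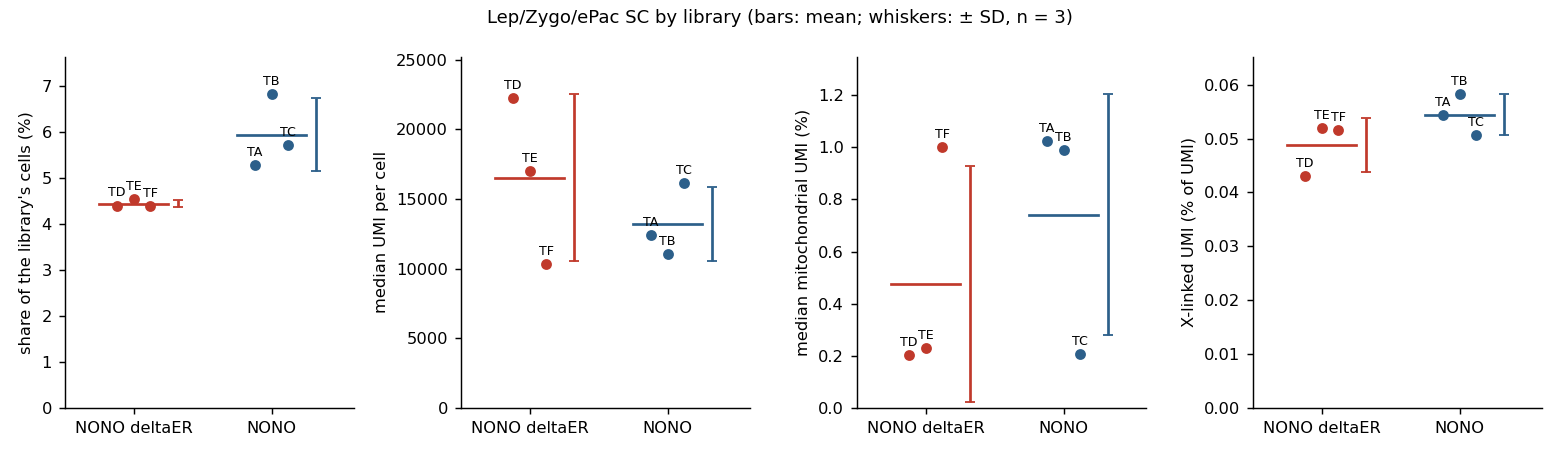
Values of Lep/Zygo/ePac SC in each library, NONO deltaER left and NONO right, with the mean (bar) and SD (whisker, n = 3): share of the library's cells in percent, median UMI per cell, median mitochondrial UMI in percent and X-linked UMI in percent. The shares are 4.39 to 4.54% in NONO deltaER and 5.29 to 6.82% in NONO, and the other 3 measures overlap between the genotypes.

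Depth and cell quality overlapped between the genotypes. Median UMI per cell averaged 16545 ± 5967 in NONO deltaER and 13215 ± 2663 in NONO (SD, n = 3 each; p = 0.5 by exact permutation, 0.6 after adjustment over 3 measures), with 22265, 17012.5 and 10358.5 in TD, TE and TF and 12420, 11039.5 and 16185 in TA, TB and TC. The median of genes per cell averaged 4830 ± 787 in NONO deltaER and 4417 ± 409 in NONO (exact permutation p = 0.5, adjusted p = 0.6). The position of the cells along the order was a median log2 ratio of 2.25, 2.06 and 1.74 in TD, TE and TF and 1.504, 1.57 and 2.20 in TA, TB and TC. It was lower in TF, TA and TB than in TD, TE and TC, whatever the genotype.

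The X-linked share was 0.0431, 0.0519 and 0.0516% in TD, TE and TF and 0.0544, 0.0582 and 0.0506% in TA, TB and TC. TC lies below TE and TF, so the genotypes overlapped, and the difference of -0.00556 percentage points did not exceed the spread (exact permutation p = 0.3, two-sided). The share was low in every library. Without the cells that carry spermatid RNA the difference was -0.00283 points (exact permutation p = 0.6).

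No gene of the class differed between NONO deltaER and NONO after adjustment. With edgeR's quasi-likelihood test on summed UMI, 0 of 12167 genes tested (0%) passed an adjusted p of 0.05, and the lowest adjusted p was 0.996. At an unadjusted p under 0.05 there were 430 genes (3.53%), of which 157 were higher in NONO deltaER (1.29%) and 273 lower (2.24%), and DESeq2 called 0 genes, with 159 at an unadjusted p under 0.05. The class was sampled deeply enough for narrow intervals: among the 4203 genes with at least 50 CPM, the 95% interval of the log2 fold change lay within 1 unit of 0 on both sides for 4176 (99.4%), and the fold change itself exceeded 0.5 in size for 13. Libraries of the genotypes did not overlap for 516 genes that were higher in NONO deltaER (4.24%) and 569 that were lower (4.68%).

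The genes nearest to a difference are named by a rule set on level, overlap and unadjusted p, and none of them passed the test (edgeR, adjusted p = 0.996 for each). Ptprm, a receptor protein tyrosine phosphatase, had 64.2, 67.2 and 64.1 CPM in TD, TE and TF and 83.9, 85.7 and 91.8 CPM in TA, TB and TC, a log2 fold change of -0.42 ± 0.08 (SE). Its NONO deltaER values were tight and all below those of NONO, and it was the 1 gene that passed when the library set was added as a covariate (edgeR, adjusted p = 0.0329). Btf3l4, a relative of a nascent-polypeptide-associated factor, had 153, 161 and 130 CPM in TD, TE and TF and 112, 115 and 118 CPM in TA, TB and TC, a log2 fold change of 0.37 ± 0.08. Frs2, an adaptor of growth factor receptors, had 60.5, 66.4 and 59.3 CPM in TD, TE and TF and 49.5, 50.4 and 48.6 CPM in TA, TB and TC (0.33 ± 0.08).

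Cdc7, a kinase of DNA replication origins, had 56.3, 54.5 and 53.7 CPM in TD, TE and TF and 43.0, 47.3 and 46.1 CPM in TA, TB and TC (0.27 ± 0.08). The other genes with higher values in NONO deltaER were Gm12763, Nmnat3, an enzyme of NAD synthesis, Gm31392, Pvt1, a long noncoding RNA, Trpc7, a cation channel, Pde10a, a phosphodiesterase, and Cdk14, a cyclin-dependent kinase, with log2 fold changes from 0.24 to 0.45. Gm31392 is also a leading gene of the class. The other genes with lower values were Gm31181, 1700029H14Rik, 4930463O16Rik, Spata21, Ice2, a subunit of the little elongation complex, Acsl1, an acyl-CoA synthetase, Hook2, a dynein adaptor, Gm31706 and Gm50166, from -0.65 to -0.22. Gm31706 had 33.1, 33.1 and 28.0 CPM in TD, TE and TF and 64.4, 50.5 and 34.8 CPM in TA, TB and TC. The value of TC lies near those of NONO deltaER, and without TC its log2 fold change was -0.85 and it passed (edgeR, adjusted p = 0.0390). Without TC 5 genes passed, all with lower values in NONO deltaER: Gm31706, Hist1h2ba, Jarid2, Otx2os1 and Tmtc2, the last 3 of them named after their values were seen.

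The meiotic gene lists, chosen with earlier results of these data known, were described by counts and medians. Over all 12167 genes tested the median log2 fold change was -0.00, and 49.6% were above 0. No member of any list passed the test. The 13 tested genes of the synaptonemal complex and cohesin had a median of -0.04, with 3 above 0. Sycp1 had 734, 788 and 770 CPM in TD, TE and TF and 778, 803 and 860 CPM in TA, TB and TC (-0.09 ± 0.07, edgeR adjusted p = 0.996), and the genotypes overlapped. The 22 genes of break formation and strand exchange had a median of 0.01, with 12 above 0, and the 15 crossover genes -0.01, with 7 above 0. The 21 piRNA genes had a median of -0.03, with 8 above 0. In 5 of the 21 the NONO deltaER libraries all lay below those of NONO, against 4.68% of all genes tested: Piwil2, Tdrd1, Tdrd7, Ddx4 and Asz1. The sizes were small, between -0.12 and -0.04 on the log2 scale. Tdrd1 had 891, 850 and 893 CPM in TD, TE and TF and 903, 926 and 947 CPM in TA, TB and TC. Piwil1 had 1761, 1732 and 1871 CPM in TD, TE and TF and 1860, 1801 and 1756 CPM in TA, TB and TC, with full overlap (-0.01 ± 0.06).

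Other lists stood near 0 as well. The 12 tested genes of the DBHS and paraspeckle list, which holds Sfpq and Pspc1, had a median of -0.03, with 5 above 0. The 23 pachytene genes had a median of -0.02, the 20 genes of sex chromosome silencing -0.02, the 30 flagellum genes -0.01, the 13 acrosome genes 0.00, the 17 glycolysis genes 0.05 and the 11 stress genes 0.05. The 10 telomere attachment genes and the 23 germ cell RNA-binding proteins had medians of -0.03, and the 17 late division genes and the 6 retrogenes -0.01. The 7 meiotic entry genes and the 11 DNA damage genes had medians of -0.12 and -0.08, which with DESeq2 turned to 0.05 and 0.03. The 6 late division genes used as markers, most of them of low level, had a median of -0.27, against -0.01 for the 17 above. Of the 6, 0 were above 0, against 49.6% of all genes tested. At an unadjusted p under 0.05 (edgeR) there were 2, against 3.53% of all genes tested, and none passed the adjusted threshold. Among single list members, Ccna1 had 29.9, 28.2 and 24.3 CPM in TD, TE and TF and 37.4, 33.0 and 33.7 CPM in TA, TB and TC (-0.32 ± 0.11, edgeR adjusted p = 0.996), and Prdm9 had 3.81, 2.28 and 2.59 CPM in TD, TE and TF and 1.59, 1.68 and 1.77 CPM in TA, TB and TC (0.82 ± 0.31, edgeR adjusted p = 0.996). Their libraries did not overlap between the genotypes, as was so for 8.92% of all genes tested in either direction. Other list members did not overlap either. Among them, Spaca1 (4.79 CPM, log2 fold change -0.82) and Egr1 (2.52 CPM, -1.19) had unadjusted p of 0.00493 and 0.00510 (edgeR). Ccna1 is far below its level in IPac/eDip SC, and Prdm9 is far below its level in Differentiated SG.

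Spermatid markers, testis histones and X-linked genes had medians further below 0 than most lists, and in 2 of the 3 NONO deltaER libraries, TD and TF, the sum of spermatid marker RNA in the class was below that of every NONO library. The 8 tested spermatid markers had a median of -0.31, with 8 of 8 below 0, the 13 testis histone and Brdt genes -0.20, with 11 below 0, and the 83 tested X-linked genes -0.20, with 60 below 0. In 7 of these 83 the NONO deltaER libraries all lay below those of NONO, against 4.68% of all genes tested. Without the 202 cells with spermatid RNA the medians were -0.23, -0.04 and -0.10. Without the 5% of cells with the highest doublet score in each library, the medians were -0.04, -0.02 and -0.09. Without TD, the library with the lowest spermatid marker sum, the median of the X-linked genes was -0.02, and without TB it was -0.08. The part of spermatid RNA in these medians was not tested further. In the histone list, Hist1h2ba, a testis H2B, had 832, 744 and 851 CPM in TD, TE and TF and 1129, 1168 and 601 CPM in TA, TB and TC, and TC was the lowest of the 6.

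**Figure D5:**
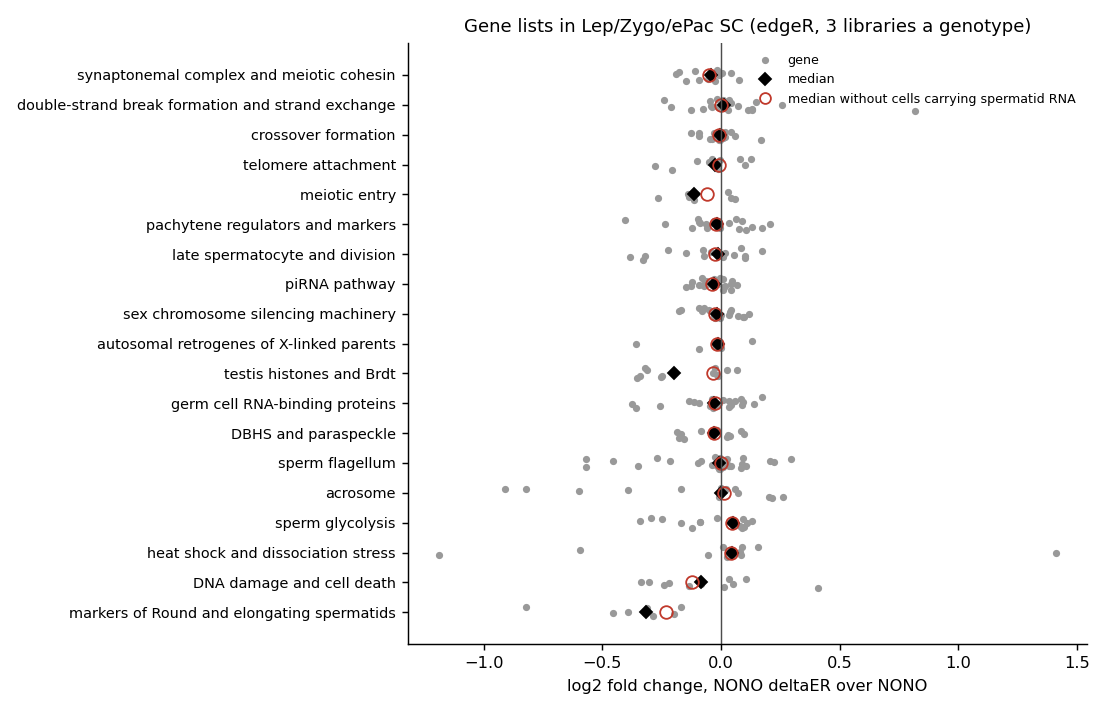
Log2 fold change of NONO deltaER over NONO for the genes of each list in Lep/Zygo/ePac SC (grey points), the median of the list (black diamond) and the median without the 202 cells that carry spermatid RNA (red ring). The medians of the testis histones and of the spermatid markers are -0.20 and -0.31, and those lists move to -0.04 and -0.23 without those cells.

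Whether the genotypes differed in another way here than in the neighbouring classes was tested with limma on the log2 ratio of CPM + 1 between classes within each library. Against Preleptotene SC, 0 of 5691 genes passed (limma, lowest adjusted p = 0.241), with 515 at an unadjusted p under 0.05 (9.05%). With genes kept by a mean log2(CPM + 1) of at least 1 in both classes instead, 0 of 10949 passed (limma, lowest adjusted p = 0.0525). Preleptotene SC had a median of 1253 UMI per cell and 135 to 295 cells per library, against a median of 13122 UMI in the class, which limits the precision of these ratios. Against IPac/eDip SC, 0 of 10962 genes passed (limma, lowest adjusted p = 0.126), with 444 at an unadjusted p under 0.05 (4.05%).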

How the data were processed

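Testis cells of 6 libraries had been counted with Cell Ranger 2.1.1 against mm10, per the submitters' processing notes. The authors deposited UMI counts per gene and cell, and a cell table with library, genotype, class, UMI and gene counts per cell and the percent of mitochondrial UMI. No column belonged to another series (0). The class members and the gene lists were chosen with earlier results of these data known. UMI were summed per library over the class. Genes were tested with edgeR 4.0.16 (quasi-likelihood, TMM, filterByExpr) with Benjamini-Hochberg adjustment at 0.05, with DESeq2 1.42.0 as an alternative, and responses were compared between classes with limma 3.58.1 on log2 ratios of CPM + 1. Shares and medians per library were compared with exact permutation tests. The edgeR fit was tested on simulated data. Symbols matched 1 gene of the GENCODE M21 annotation for 25127 of 25771 genes (97.5%). Clusters were made with scanpy 1.11.5 (2000 variable genes, 30 components, 15 neighbours, resolution 0.5). Beside list members, named genes are the 20 with the largest ratio to the next class at 50 CPM or more, the 10 highest, every gene past the threshold, and the 10 higher and 10 lower genes with the lowest unadjusted p among those of at least 20 CPM whose libraries did not overlap between genotypes. Alternatives changed the normalisation, the filter on low counts, the cells entering and the libraries. Total UMI of the class ran from 4246357 to 7899673 per library, and their number limits the precision of low genes.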

Additional observations from a re-analysis of the deposited data

How the results depend on the processing

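Of the values that answer a comparison, 347 were labelled the same under an alternative and 44 moved, by a rule set for each kind of value. For shares and cell measures the rule asked only for the same direction and the same side of 0.05. The exact permutation p cannot fall under 0.1 with 3 libraries a genotype, so for these the label says nothing of how far the value moved. Several list medians, none of them tested, changed sign. No paired analysis was possible because the library letters are not tied to the replicate numbers of the labels, so the fit with the replicate block was not run. Without the filter on low counts 1 gene passed (Gm12763), with the library set as covariate 1 (Ptprm), and 0 to 5 when single libraries were left out, the 5 without TC. Requiring 2-fold over the next class left 65 leading genes, and a minimum of 100 CPM left 95. The remaining moved values are medians of log2 fold change per list. With DESeq2 they were -0.0184 for the synaptonemal complex, 0.0479 for meiotic entry and 0.0289 for DNA damage. Without the filter they were -0.0241, 0.0447 and 0.0232 for the same lists, and -0.00833 for DBHS. Without the top doublet scores they were -0.0176 for testis histones, -0.0381 for spermatid markers and -0.0936 for X-linked genes. With equal numbers of cells they were 0.00591 for the synaptonemal complex, -0.0615 for meiotic entry, -0.0733 for late division and -0.0522 for testis histones. With the library set as covariate, meiotic entry was -0.0505 and testis histones -0.0568. Without the cells with spermatid RNA these were -0.0593 and -0.0357.

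Leaving out 1 library at a time gave medians of -0.0747 to -0.0224 for the synaptonemal complex, -0.0516 to 0.0377 for strand exchange, -0.111 to 0.0232 for telomere attachment, -0.107 to -0.00108 for meiotic entry, -0.0423 to 0.00277 for late division, -0.0459 to 0.00732 for piRNA genes and -0.0373 to 0.0413 for retrogenes. It gave -0.2495 to -0.0260 for testis histones, -0.0505 to -0.0143 for DBHS, -0.0275 to 0.0304 for glycolysis, -0.180 to -0.0148 for DNA damage and -0.199 to -0.0169 for X-linked genes. The cause of these movements was not tested. The share of cells differed by -1.83 to -1.06 points when 1 library was left out. Depth limits what can be said of Nono, with 9 UMI in the class in all.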
